A study of Mus musculus with 16 samples.

Results

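Inflammatory caspases, the pore-forming protein they cut, and the kinases of necroptosis were examined in cultured mouse astrocytes as 9 genes: Casp1, Casp4, Casp12, Gsdmd and Nlrp3 of pyroptosis, and Casp8, Ripk1, Ripk3 and Mlkl of the death receptor and necroptosis pathway. They were chosen by symbol from the deposited table of log2 CPM (read counts scaled to library size), which holds 16707 genes and contained 8 of the 9. Nlrp3 was not among its rows. Astrocytes had been selected with beads against the surface antigen ACSA2 from the brains of pups, aged P6 by the labels, either WT C57BL6J mice or Nlrx1-/- mice, and were grown in serum free medium with heparin-binding EGF. Both genotypes came as 4 litters, and each litter gave a well treated with water as vehicle and a well treated with 500 ng/mL lipopolysaccharide (LPS) together with 10 ng/mL IFNγ, both for 24 h, which makes 16 libraries. All 4 groups share the bead selection and the culture, no well received LPS or IFNγ alone, and each litter has 1 genotype. The litter is the replicate, as in the study's methods. In the figures, KO stands for Nlrx1-/-.

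Pyroptosis is a lytic death in which a sensor such as NLRP3 gathers the adaptor ASC and activates caspase-1, or in which caspase-11, the product of mouse Casp4, binds LPS inside the cell. These caspases cut gasdermin D, whose freed end forms pores in the plasma membrane, and caspase-1 also matures IL-1β and IL-18. In necroptosis the kinases RIPK1 and RIPK3 join through their RHIM domains, RIPK3 phosphorylates MLKL, and MLKL breaks the membrane, while caspase-8 cuts both kinases and holds this route in check. In the brain these genes are best known from microglia and infiltrating myeloid cells, and several of them are induced by interferons.

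After LPS + IFNγ, 7 of the 8 measured genes rose in WT astrocytes and the same 7 rose in Nlrx1-/- astrocytes, all but Ripk3. Mlkl rose 105-fold in WT (6.71 ± 0.66 log2 units, SD, n = 4 litters), Casp4 rose 70.8-fold, Casp1 39.5-fold, Gsdmd 17.8-fold, Casp12 14.2-fold, Casp8 3.23-fold and Ripk1 1.74-fold. These folds are the mean of the 4 differences in deposited log2 CPM within a litter, taken out of the log scale. edgeR's quasi-likelihood test called 7 of the 8 higher and 0 lower in WT, where 24.3% of 16066 genes were called higher and 19.8% lower. In Nlrx1-/- it called 7 higher and 0 lower, against 25.6% and 23.9% of all genes. The median edgeR log2 fold change of the 8 was 4.52 in WT and 4.55 in Nlrx1-/-, and that of all genes was -0.01 and -0.03. The counts behind these medians miss reads of Casp12 and Gsdmd. In WT edgeR gave these 2 genes 4.40 and 4.64, beside litter means of 3.82 and 4.15 in the deposited values. In Nlrx1-/- it gave 4.90 and 4.21, beside 4.25 and 4.19. For these 7 genes every stimulated library lay above every vehicle library of its genotype, a separation that 20.2% of the genes in the table showed in WT and 17.6% in Nlrx1-/-.

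**Figure D1:**
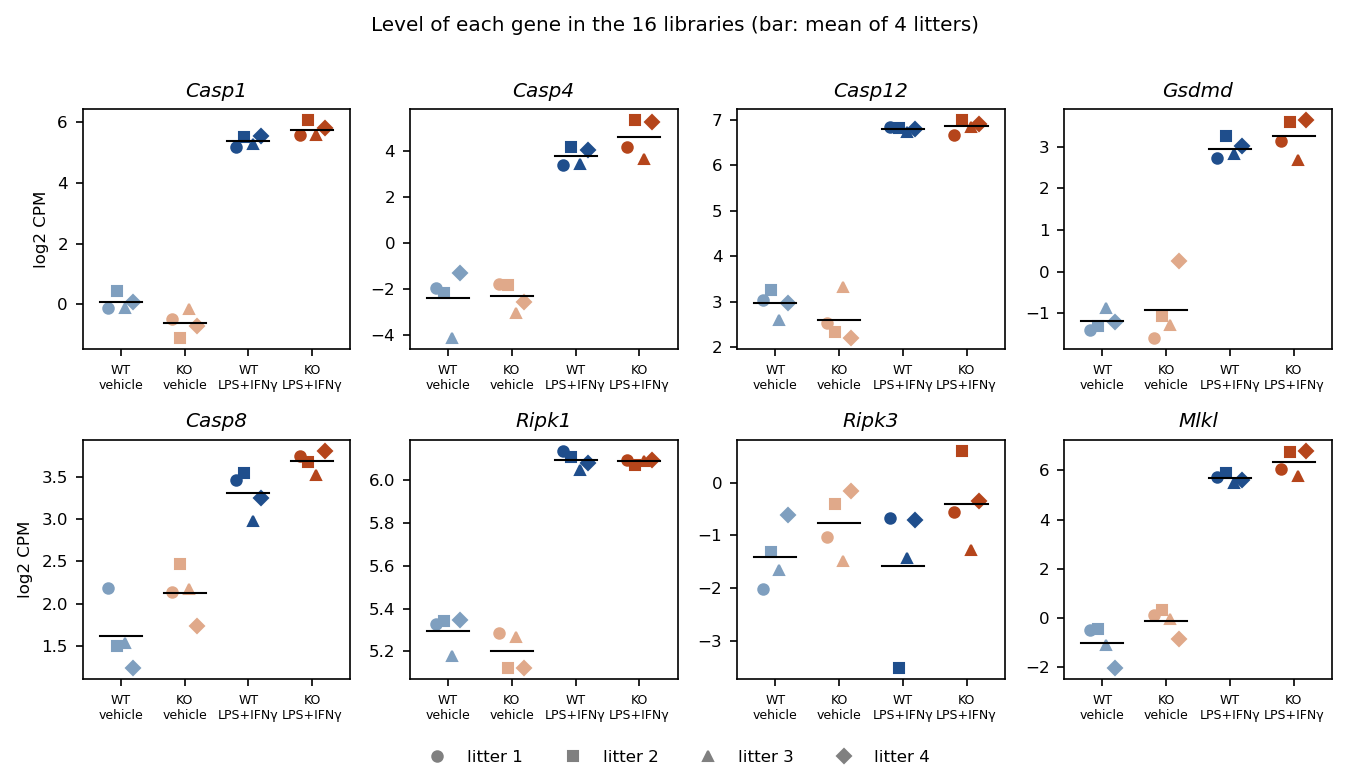
Log2 CPM of the 8 genes in each library, by genotype and treatment; symbols mark the litter and bars the mean of 4 litters, and the vertical axes differ between panels. All genes but Ripk3 show stimulated libraries above all vehicle libraries, and Casp1 is the gene whose genotypes also separate within a treatment.

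The depth was 27259420 to 43752903 assigned read pairs in the single libraries. Nlrx1 itself was at 4.22 ± 0.15 log2 CPM in WT vehicle and 4.12 ± 0.05 in WT LPS + IFNγ, and at 2.47 ± 0.53 and 1.90 ± 0.54 in Nlrx1-/- (SD, n = 4), lower in every knockout library than in every WT library (highest knockout value 2.96, lowest WT value 4.08). All 10 astrocyte markers were measured, with a summed level between 5449 and 11082 CPM per library. Of 16 markers of microglia or macrophages 13 were not in the table. Cd68 lay between 0.587 and 1.92 CPM over all libraries. P2ry12 lay between 0.0647 and 0.357 CPM in WT vehicle, 0.461 and 0.798 in WT LPS + IFNγ, 0.0481 and 0.444 in Nlrx1-/- vehicle and 0.616 and 1.78 in Nlrx1-/- LPS + IFNγ. In the transcripts paired with their symbols, Aif1, the gene of the microglial protein Iba1, had 7 reads in all 16 libraries together and Cx3cr1 had 10. The 9 markers of the oligodendrocyte lineage summed to between 2135 and 3733 CPM, 7 of 8 neuronal markers to between 830 and 1179, the 5 fibroblast markers to between 34.4 and 154.8, 3 of 4 ependymal markers to between 71.3 and 231.5 and 3 of 6 endothelial markers to between 3.43 and 15.96. In WT most of the fibroblast sum was Pdgfra, which is also in the oligodendrocyte lineage list and was at 119.9 to 134.1 CPM in WT vehicle, 37.4 to 62.1 in WT LPS + IFNγ, 60.2 to 103.0 in Nlrx1-/- vehicle and 22.2 to 39.003 in Nlrx1-/- LPS + IFNγ, while Col1a1 overlapped between all 4 groups. The ependymal sum, nearly all Foxj1, was 168.5 to 231.5 CPM in WT vehicle, 119.6 to 166.3 in WT LPS + IFNγ, 102.4 to 185.1 in Nlrx1-/- vehicle and 71.3 to 116.0 in Nlrx1-/- LPS + IFNγ, so after stimulation the genotypes did not overlap. The part of these other cells in the values below was not tested. In bulk RNA, fewer cells that express a gene and less RNA per cell cannot be told apart.

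Casp1, Casp4 and Casp12 are neighbours on mouse chromosome 9, all on the plus strand (GRCm39, GENCODE M39). Casp1 lies at chr9:5298508-5307290, Casp4 at chr9:5308828-5336783 and Casp12 at chr9:5345415-5373034, with 1537 bases between the first pair and 8631 between the second. Mlkl is on the minus strand at chr8:112036296-112065168. The 250 bases before the RefSeq start of these 4 genes, those with the largest responses besides Gsdmd, are shown because each gene rose in every litter. They come from RefSeq promoter windows of GRCm38.p6 and match GRCm39 exactly once on their chromosome, at chr9:5298267-5298516 (plus), chr9:5308599-5308848 (plus), chr9:5345226-5345475 (plus) and chr8:112064838-112065087 (minus), in the order Casp1, Casp4, Casp12, Mlkl. Each is written 5′ to 3′ on the strand of the gene, and capitals mark the motif matches described after them.
Casp1: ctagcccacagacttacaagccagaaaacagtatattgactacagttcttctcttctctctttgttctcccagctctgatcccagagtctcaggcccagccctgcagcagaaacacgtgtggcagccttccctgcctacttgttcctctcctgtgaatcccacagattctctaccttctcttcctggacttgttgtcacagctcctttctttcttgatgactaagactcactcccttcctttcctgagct
Casp4: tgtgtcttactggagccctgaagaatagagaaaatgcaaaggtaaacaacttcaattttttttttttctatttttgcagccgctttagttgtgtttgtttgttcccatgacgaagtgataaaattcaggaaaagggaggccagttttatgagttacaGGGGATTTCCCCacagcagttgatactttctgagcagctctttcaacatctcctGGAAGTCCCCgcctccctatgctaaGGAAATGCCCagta
Casp12: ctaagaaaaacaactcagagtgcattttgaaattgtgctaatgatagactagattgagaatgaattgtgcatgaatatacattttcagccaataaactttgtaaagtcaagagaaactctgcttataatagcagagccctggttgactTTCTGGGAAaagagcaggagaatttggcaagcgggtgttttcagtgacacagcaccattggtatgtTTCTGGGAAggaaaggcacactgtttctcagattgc
Mlkl: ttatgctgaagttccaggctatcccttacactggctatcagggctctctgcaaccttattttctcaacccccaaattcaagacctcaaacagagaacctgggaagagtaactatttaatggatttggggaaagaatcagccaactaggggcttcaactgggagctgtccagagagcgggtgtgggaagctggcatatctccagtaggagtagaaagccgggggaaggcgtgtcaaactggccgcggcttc

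The motifs searched, 3 in all, were read on both strands: the GAS site (interferon-gamma activated sequence) as TTCNNNGAA, the core of the interferon-stimulated response element as GAAANNGAA, and the κB site as GGG and TCC with 3 or 4 bases of any kind between them. The GAS letters read the same on both strands, and GAS and response element matches may overlap each other. The 250 bases before the Casp4 start held 3 separate stretches with κB matches, the one farthest from the start readable in either direction. Those before the Casp12 start held the GAS letters TTCTGGGAA at 2 places, ending 94 and 28 bases before the start. No match of the searched letters lay in the windows shown for Casp1 and Mlkl. Windows were found for 8 of the 9 genes (11 windows, none for Gsdmd). In the 250 bases before the start, Casp8 and Ripk3 had no match and each Nlrp3 window had a κB match. A second Ripk1 start had TTCCCGGAA there at 2 places. Of 32851 windows in the table, 7.02% held a GAS match in these 250 bases, 7.13% a response element core and 25.7% a κB match. These matches describe letters in a window, and no binding was measured.

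Casp1, the protease that inflammasomes activate, was low in vehicle and among the most abundant of the set after stimulation. Its vehicle libraries held 27.4 to 40.6 reads recovered from the deposited CPM in WT and 15.1 to 31.1 in Nlrx1-/-. WT vehicle libraries had -0.10, 0.44, -0.11 and 0.08 log2 CPM in litters 1 to 4, and their stimulated partners 5.18, 5.51, 5.28 and 5.55. Nlrx1-/- vehicle libraries had -0.48, -1.11, -0.15 and -0.71, and their partners 5.59, 6.06, 5.58 and 5.80. The knockout values thus sat below all WT values in vehicle and above all WT values after LPS + IFNγ, by a gap of 0.04 log2 units in vehicle and of 0.03 after stimulation. The response within a litter was 5.30 ± 0.17 log2 units in WT and 6.37 ± 0.62 in Nlrx1-/- (SD, n = 4), and the lowest knockout response, 5.73, exceeded the highest WT response, 5.47. In edgeR the responses were 5.38 ± 0.17 (SE, adjusted p = 2.76e-09) and 6.44 ± 0.19 (adjusted p = 9.87e-10).

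Casp4 had the lowest mean level of the set in vehicle and was induced in every litter. WT vehicle libraries had -1.97, -2.19, -4.13 and -1.32 log2 CPM, where -4.13 is the value the table gives to a count of 0, which allows up to 0.0686 CPM (3 counts; counting error only). After stimulation they had 3.39, 4.14, 3.41 and 4.02. Nlrx1-/- libraries had -1.80, -1.83, -3.03 and -2.58 in vehicle and 4.15, 5.31, 3.61 and 5.24 after LPS + IFNγ. The stimulated knockout litters 2 and 4 were above all WT litters, litter 1 was level with the highest WT litter and litter 3 was within the WT range. The mean response was 6.15 ± 1.04 log2 units in WT and 6.89 ± 0.79 in Nlrx1-/- (SD, n = 4), with ranges that overlap, and the WT response of litter 3 depends on the prior behind the 0. In edgeR on counts recovered from the deposited CPM, which keep all reads of the gene, it was 6.34 ± 0.35 (SE, adjusted p = 6.40e-08) and 7.38 ± 0.35 (adjusted p = 1.50e-08).

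Casp12, the third caspase of the cluster and one often linked to the endoplasmic reticulum, was already expressed in vehicle. WT libraries had 3.04, 3.27, 2.59 and 2.98 log2 CPM in vehicle and 6.84, 6.81, 6.74 and 6.78 after LPS + IFNγ. In Nlrx1-/- they had 2.53, 2.33, 3.33 and 2.20, and 6.67, 6.99, 6.84 and 6.91. The stimulated libraries of both genotypes thus spanned only 6.67 to 6.99, while the vehicle libraries spread over 2.20 to 3.33. The response was 3.82 ± 0.25 in WT and 4.25 ± 0.56 in Nlrx1-/- (SD, n = 4). The transcripts paired with a symbol held at most 57.5% of the reads of Casp12 and 0 in 1 library, Nlrx1-/- vehicle litter 4, so its tests on recovered counts are given: 3.83 ± 0.18 (SE, edgeR adjusted p = 1.22e-08) and 4.25 ± 0.18 (adjusted p = 5.78e-09).

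Gsdmd encodes gasdermin D, the pore protein that caspase-1 and caspase-11 cut. Its WT vehicle libraries had -1.40, -1.31, -0.87 and -1.21 log2 CPM and its WT stimulated libraries 2.72, 3.25, 2.84 and 3.02. Nlrx1-/- libraries had -1.60, -1.06, -1.28 and 0.26 in vehicle and 3.14, 3.59, 2.70 and 3.64 after LPS + IFNγ. Litter 4 was the highest of the knockout vehicle libraries, with 49.2 recovered reads against 10.0 to 15.7 in the other 3, and had the smallest knockout response, 3.38. The mean response was 4.15 ± 0.35 in WT and 4.19 ± 0.64 in Nlrx1-/- (SD, n = 4; edgeR log2 fold changes 4.64 ± 0.30 and 4.21 ± 0.28, SE, adjusted p = 7.73e-07 and 9.36e-07).

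Nlrp3, the sensor upstream of caspase-1, had 4 transcripts in the Salmon files that were paired with its symbol. None of these had a read in any of the 16 libraries. A transcript that was not paired would not have been counted. With 3 counts as the limit that a count of 0 allows, the level of the paired transcripts was under 0.0686 to 0.110 CPM depending on the library. An induction of them by LPS + IFNγ up to that level was not detectable at this depth.

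Casp8, the initiator caspase of death receptors, changed less. WT libraries had 2.18, 1.50, 1.54 and 1.24 log2 CPM in vehicle and 3.45, 3.54, 2.98 and 3.25 after stimulation, and Nlrx1-/- libraries 2.13, 2.47, 2.17 and 1.73, and 3.74, 3.67, 3.51 and 3.81. Every litter rose, by 1.27 to 2.04 log2 units in WT and by 1.20 to 2.08 in Nlrx1-/-. The edgeR log2 fold changes were 1.56 ± 0.16 (SE, adjusted p = 2.20e-05) and 1.77 ± 0.16 (adjusted p = 7.08e-06), beside mean litter responses of 1.69 ± 0.39 and 1.56 ± 0.39 in the deposited values (SD, n = 4). The paired transcripts held between 59.6% and 105% of the recovered reads.

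Ripk1, the kinase that both death receptor and necroptosis complexes contain, had the highest vehicle level per length and the smallest called change. It was at 5.33, 5.34, 5.18 and 5.35 log2 CPM in WT vehicle, 6.14, 6.11, 6.05 and 6.08 in WT LPS + IFNγ, 5.29, 5.12, 5.27 and 5.12 in Nlrx1-/- vehicle and 6.10, 6.07, 6.09 and 6.10 in Nlrx1-/- LPS + IFNγ. The groups of a genotype were far apart for their spread: the response of 0.80 ± 0.06 in WT and 0.89 ± 0.09 in Nlrx1-/- (SD, n = 4) exceeded the SD within each group, 0.01 to 0.09 (edgeR 0.80 ± 0.055 and 0.88 ± 0.055, SE, adjusted p = 1.28e-06 and 5.30e-07).

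Ripk3, the kinase that phosphorylates MLKL, stayed near the lower limit of the table in all groups. Its log2 CPM were -2.01, -1.32, -1.66 and -0.62 in WT vehicle, -0.68, -3.52, -1.42 and -0.71 in WT LPS + IFNγ, -1.03, -0.40, -1.48 and -0.16 in Nlrx1-/- vehicle and -0.57, 0.60, -1.28 and -0.35 in Nlrx1-/- LPS + IFNγ. These values rest on 0.991 to 40.9 recovered reads per library, and all 4 groups overlap. The litters went both ways: 2 of 4 were higher after stimulation in WT and 3 of 4 in Nlrx1-/-, with mean responses of -0.18 ± 1.48 and 0.37 ± 0.50 (SD; edgeR adjusted p = 0.917 and 0.611). Without WT litter 2, whose stimulated library had 0.991 reads, the WT log2 fold change in edgeR was 0.53 instead of -0.10, so its direction rests on that litter. With all litters the standard error was 0.64 log2 units in WT, so a change of that size could not be told from 0. The smallest change that could be called was not determined.

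Mlkl, the executor of necroptosis, had the largest mean response in WT in the deposited values, and in edgeR on recovered counts it also exceeded Casp4. On the paired transcripts edgeR and DESeq2 put Casp4 above it, at 7.34 against 6.70 in edgeR. WT libraries had -0.49, -0.44, -1.10 and -2.05 log2 CPM in vehicle and 5.74, 5.90, 5.50 and 5.62 after LPS + IFNγ. Nlrx1-/- libraries had 0.13, 0.34, -0.05 and -0.85, and 6.04, 6.75, 5.76 and 6.81. As for Casp4, the stimulated knockout litters 2 and 4 were the highest of all stimulated libraries. The response was 6.71 ± 0.66 in WT and 6.45 ± 0.85 in Nlrx1-/- (SD, n = 4), litter 4 having the largest response in each genotype, 7.67 and 7.65, and the lowest vehicle level. In edgeR the log2 fold changes were 6.70 ± 0.48 (SE, adjusted p = 1.74e-06) and 6.89 ± 0.46 (adjusted p = 9.36e-07), and on recovered counts 6.79 ± 0.26 and 6.52 ± 0.24.

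**Figure D2:**
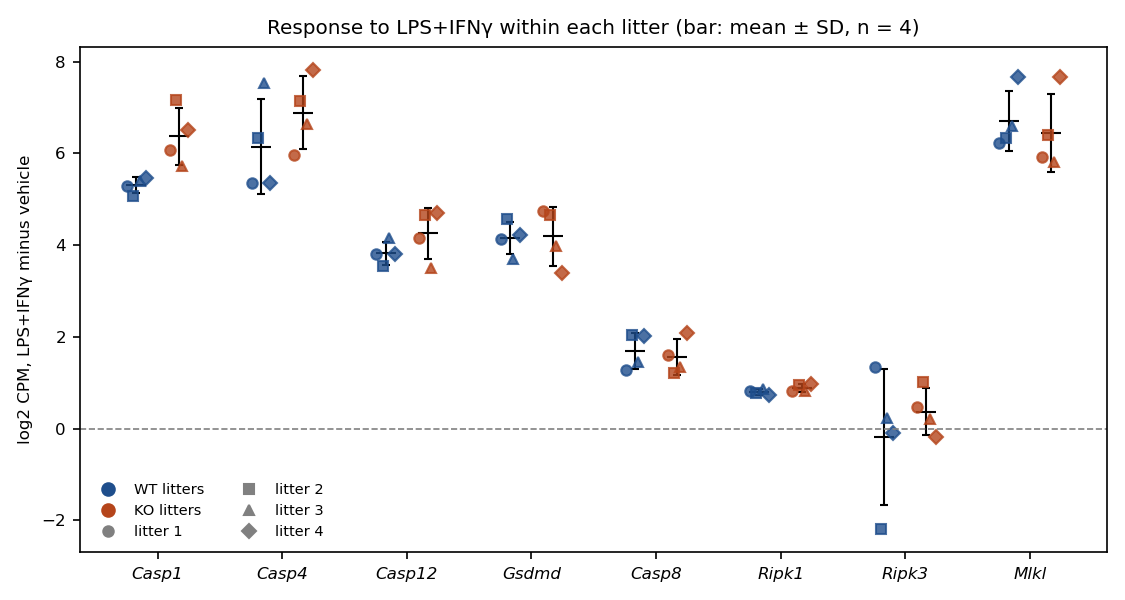
Response of each gene within a litter, as log2 CPM in LPS + IFNγ minus log2 CPM in vehicle; blue points are WT litters, rust points Nlrx1-/- litters (KO), and bars give the mean ± SD of 4 litters. Responses lie above 0 in all litters for 7 genes, Ripk3 spreads around 0, and Casp1 is the gene whose knockout responses, 5.73 to 7.17, all exceed its WT responses, 5.07 to 5.47.

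To ask whether the loss of NLRX1 altered these responses, the difference between the genotypes' responses was tested as an interaction. edgeR called 0 of the 8 genes higher and 0 lower at an adjusted p of 0.05, as it called 0% of all 16066 genes in either direction, while 2477 genes had an unadjusted p under 0.05. Among the 8, Casp1 alone had an unadjusted p under 0.05, with an interaction of 1.07 ± 0.27 log2 units (SE, edgeR adjusted p = 0.215). Its 4 knockout responses lay above the 4 WT responses, as those of 3.06% of the genes in the table did. DESeq2 on the same counts called it (1.09, adjusted p = 0.0266), where 0.703% of all genes were called higher and 1.23% lower. So did edgeR without Nlrx1-/- litter 3 (1.29, adjusted p = 0.0453), where 0.847% of all genes were called higher and 1.36% lower. For Casp1, limma on the deposited values gave 1.07 (adjusted p = 0.167), and over all alternatives the adjusted p ran from 0.0266 to 0.598. The other 7 genes had adjusted p between 0.624 and 0.945 in edgeR.

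For those 7 the responses of the genotypes overlapped, and none of the differences was called. On recovered counts the interaction was 1.04 ± 0.68 for Casp4, 0.41 ± 0.24 for Casp12, -0.05 ± 0.36 for Gsdmd, -0.14 ± 0.25 for Casp8, 0.09 ± 0.08 for Ripk1, 0.49 ± 0.85 for Ripk3 and -0.26 ± 0.42 for Mlkl (log2 units, SE). The median over the 8 genes was 0.35 with the paired transcripts, beside -0.02 over all genes.

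In vehicle, edgeR called 0 of the 8 genes higher and 0 lower in Nlrx1-/- than in WT, as for 0% of all genes in either direction, and 3135 of all genes and 2 of the 8 had an unadjusted p under 0.05. DESeq2 called 0 of the 8, beside 3.01% of all genes higher and 1.84% lower, and gave Ripk3 no adjusted p. With limma 0 of the 8 were called, beside 0% of all genes higher and 0.00599% lower. Casp1 was lower in Nlrx1-/- by 0.69 log2 units in the deposited values (-0.61 ± 0.40 against 0.08 ± 0.26, SD, n = 4; edgeR -0.71 ± 0.22, SE, adjusted p = 0.129). It was the only one of the 8 whose vehicle groups did not overlap with the knockout lower, which 3.43% of all genes showed. Without Nlrx1-/- litter 3 edgeR called Casp1 (-0.88, adjusted p = 0.0338), and 3.6% of all genes were then called higher and 4.28% lower. Gsdmd also had an unadjusted p under 0.05 in edgeR (0.89 ± 0.42, SE, adjusted p = 0.256), although the deposited values differed by 0.27, and the paired transcripts held 32.2% of its reads in WT vehicle litter 3. Without Nlrx1-/- litter 4, the library with the most Gsdmd reads in vehicle, the edgeR value was 0.24 (adjusted p = 0.741). Casp8 and Mlkl had higher means in Nlrx1-/-, 2.13 ± 0.30 against 1.61 ± 0.40 and -0.11 ± 0.52 against -1.02 ± 0.75 log2 CPM (SD, n = 4). Neither passed adjustment with limma on these values (adjusted p = 0.173 and 0.154), and the libraries of the genotypes overlapped.

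After LPS + IFNγ, edgeR called 2.46% of all genes higher and 2.27% lower in Nlrx1-/- than in WT, and 0 of the 8 in each direction. DESeq2 (7.88% and 7.68% of all genes) and limma (4.4% and 4.41%) also called 0 of the 8. DESeq2 gave Ripk3 no adjusted p. Casp1 was higher by 0.38 log2 units, 5.76 ± 0.23 against 5.38 ± 0.18 log2 CPM (SD, n = 4; edgeR 0.37 ± 0.15, SE, adjusted p = 0.121). It was the only one of the 8 with an unadjusted edgeR p under 0.05 and the only one whose stimulated groups did not overlap, which 7.09% of all genes showed with the knockout higher. Casp4 was at 4.58 ± 0.83 against 3.74 ± 0.40, Mlkl at 6.34 ± 0.52 against 5.69 ± 0.17 and Gsdmd at 3.27 ± 0.44 against 2.96 ± 0.23 log2 CPM (SD, n = 4), with adjusted p of 0.188, 0.196 and 0.514 in edgeR. On recovered counts, where 3 of the 8 had an unadjusted p under 0.05 and 0 were called, Mlkl gave 0.71 ± 0.24 (SE, edgeR adjusted p = 0.0687) and Casp4 0.97 ± 0.39 (adjusted p = 0.117). In these 3 genes the knockout SD was larger than the WT SD, with litters 2 and 4 the 2 highest and litter 3 the lowest of the knockout litters. Ripk3 had the largest difference in the deposited values, 1.18 log2 units, at the low counts given above and with overlapping libraries (edgeR 1.07 ± 0.64, SE, adjusted p = 0.285). Casp8 differed by 0.38, as much as Casp1, with libraries that overlapped (limma adjusted p = 0.219). Casp12 and Ripk1 differed by 0.06 and -0.01. The ependymal marker sum also separated the genotypes in these libraries, and its part in the differences was not tested.

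Within the 8 stimulated libraries, 4 of each genotype, Casp4 followed Gsdmd (Pearson r = 0.97) and Mlkl (r = 0.95), and Gsdmd followed Mlkl (r = 0.90). Casp1 followed the same 3 genes, with r of 0.91 for Casp4, 0.84 for Mlkl and 0.82 for Gsdmd, while Ripk1 followed none of the 3 (r between -0.13 and 0.03). In the 8 vehicle libraries the same pairs of Casp4, Gsdmd and Mlkl gave r of -0.31, 0.01 and -0.26. Over all pairs of the 8 genes the vehicle r ran from -0.70 (Gsdmd and Ripk1) to 0.87 (Casp8 and Mlkl). These values are descriptions over libraries that share genotype and litter, and the vehicle values of Casp4, Gsdmd and Mlkl rest on few reads.

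**Figure D3:**
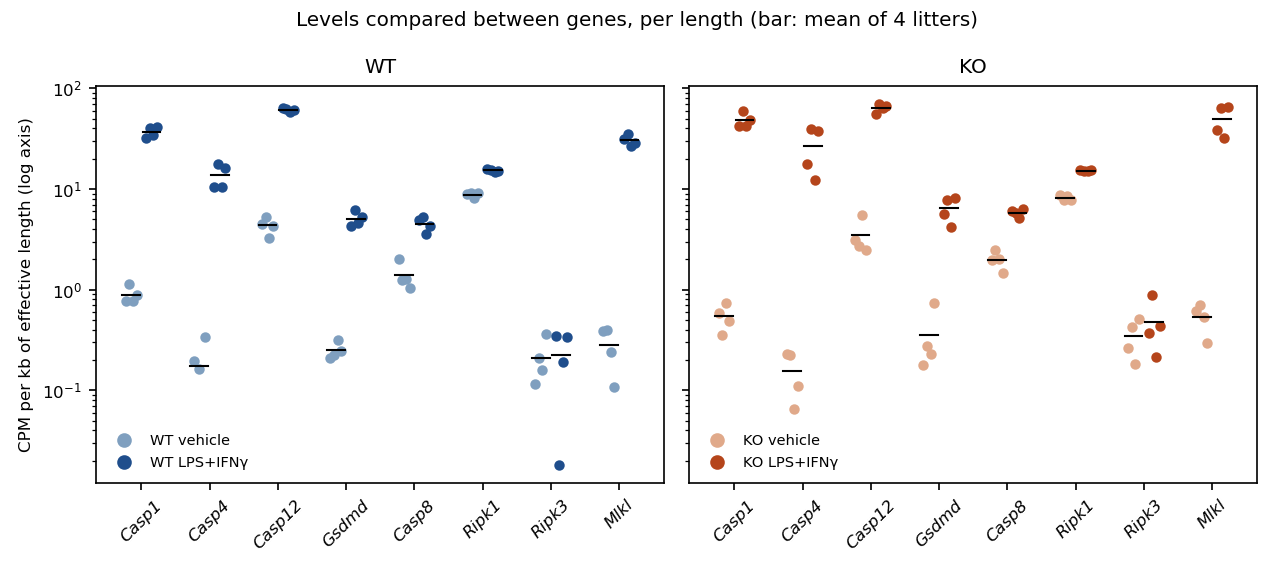
CPM per kb of effective transcript length for each gene, WT on the left and Nlrx1-/- (KO) on the right, on a log axis; points are libraries and bars the mean of 4 litters, and the WT vehicle library with 0 for Casp4 has no point. Ripk1 is the highest gene in vehicle and Casp12 after LPS + IFNγ, and Ripk3 stays below 1 CPM per kb in every group.

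Per length, the order of the genes changed with stimulation. In WT vehicle Ripk1 led with 8.77 CPM per kb of effective transcript length, followed by Casp12 with 4.34, Casp8 with 1.40, Casp1 with 0.888, Mlkl with 0.282, Gsdmd with 0.249, Ripk3 with 0.210 and Casp4 with 0.175. Casp8 and Casp1 overlapped between litters, and so did the neighbours from Mlkl down to Casp4. After LPS + IFNγ the WT order was Casp12 (61.0), Casp1 (36.8), Mlkl (30.4), Ripk1 (15.2), Casp4 (13.6), Gsdmd (5.05), Casp8 (4.50) and Ripk3 (0.223). Here Casp1 overlapped Mlkl, Ripk1 overlapped Casp4 and Gsdmd overlapped Casp8, and the other neighbours were separate. Nlrx1-/- astrocytes had Mlkl (49.8) before Casp1 (48.1) and Casp4 (26.7) before Ripk1 (15.2), each pair overlapping. Casp12 led there too with 63.7, overlapping Mlkl, and Ripk3 was last with 0.479. In TPM of the paired transcripts, Casp1 (63.4) came before Casp12 (53.4) in WT after LPS + IFNγ, where Casp12 is undercounted.

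The genes differed in how reads were shared between transcript variants, as Salmon estimated it. Casp1 had 1 transcript. Of the 8 of Casp4, a variant of 1443 bases took 81.2% of the gene's TPM in WT and 82.2% in Nlrx1-/- after LPS + IFNγ (means of 4 libraries, 77.3% to 86.0% in single libraries). For Mlkl a variant of 2007 bases took 51.9% and 55.4%, one of 2277 bases 23.1% and 22.8% and one of 1859 bases 22.1% and 19.4%. For Casp12 the 2 paired variants, of 2605 and 2069 bases, took 75.2% and 24.8% in WT and 74.5% and 25.5% in Nlrx1-/-, and in vehicle the shorter one had no reads, in libraries where the longer one had at most 137.5. The shares after stimulation were close in the genotypes, and the difference was not tested.

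The patterns over all 16 libraries that were most like Casp1 among 11970 genes with a mean of at least 1 log2 CPM were those of Serping1 and Gbp2 (Pearson r = 0.997 each), which were also the most like Casp12 (0.996 each). Rtp4 and Bst2 were the most like Gsdmd (0.993 and 0.992), Manf and Lmo4 Mlkl (0.996 and 0.994), Crem and Ifi35 Casp4 (0.988 and 0.987), Ppa1 and Noc4l Casp8 (0.983 and 0.982), Gbp2 and Casp12 Ripk1 (0.995 each) and Slc25a30 and Mtm1 Ripk3 (0.805 and 0.790). The points form a vehicle and a stimulated set, so a high r mostly states that both genes rose. Within the stimulated libraries alone Casp1 and Gbp2 gave -0.38, and Gsdmd and Bst2 still 0.92.

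The genes around these members showed which neighbours rose with them. Of 14 inflammasome sensors and adaptors 3 passed the count filter, and the adaptor Pycard, which encodes ASC, rose by 3.88 ± 0.29 log2 units in WT and 3.33 ± 0.28 in Nlrx1-/- (SE, edgeR adjusted p = 2.55e-06 and 5.61e-06). Nlrp6 gave -1.35 in WT and was not called in either genotype, and Nek7, a partner of NLRP3 named here after its values were seen, was called in Nlrx1-/- at 0.14 log2 units (median of the 3 tested 0.12 in WT and 0.14 in Nlrx1-/-). The other sensors had few reads in their paired transcripts, for example 20.2 for Aim2 and 8 for Nlrc4 summed over the 16 libraries. Of 5 cytokines of the list, Il1b had 4 reads in its paired transcripts in all libraries together and Il1a 2. Il18 rose by 0.50 ± 0.08 in WT and 0.46 ± 0.08 in Nlrx1-/- (adjusted p = 0.000653 and 0.000948), and Il33, a nuclear alarmin of astrocytes and oligodendrocytes, fell by 1.18 ± 0.12 and 1.29 ± 0.13 (adjusted p = 2.68e-05 and 1.42e-05). Hmgb1, named after its values were seen, was called lower in both. The median of the 3 tested was -0.15 and -0.42.

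Casp6, an effector caspase outside the members, fell by 0.31 ± 0.12 log2 units in WT and 0.65 ± 0.12 in Nlrx1-/- (SE, edgeR adjusted p = 0.0498 and 0.00106). Of 10 gasdermin and membrane rupture genes 2 were tested (medians 0.08 and 0.10): Ninj1, needed for the final rupture of the membrane, rose by 0.26 ± 0.07 and 0.28 ± 0.07 (adjusted p = 0.0118 and 0.00624), and Gsdme, another gasdermin, gave -0.10 ± 0.13 and -0.07 ± 0.13 and was not called. Ninj1 was also higher in Nlrx1-/- than in WT after LPS + IFNγ (0.36 ± 0.09, adjusted p = 0.0449), where 2.46% of all genes were called higher and 2.27% lower. It was so in vehicle by its means, 4.39 against 4.05 log2 CPM, without a call.

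Of 19 genes of death receptor complexes and of the brakes on RIPK1 and caspase-8, 12 rose in each genotype, 1 fell in WT and 0 in Nlrx1-/-, with a median of 0.62 in WT and 0.56 in Nlrx1-/-. Beside them, 24.3% of all genes were called higher and 19.8% lower in WT, and 25.6% and 23.9% in Nlrx1-/-. The medians of all genes were -0.01 and -0.03. Tnfaip3, the ubiquitin-editing inhibitor A20, rose by 3.26 ± 0.30 and 3.59 ± 0.30 log2 units (SE, edgeR adjusted p = 1.08e-05 and 4.30e-06), Birc3, the inhibitor of apoptosis protein cIAP2, by 2.32 ± 0.26 and 2.65 ± 0.25, and Cflar, which encodes the caspase-8 partner cFLIP, by 0.66 ± 0.09 and 0.88 ± 0.09. The gene that fell in WT was Tab2 (-0.25 ± 0.07, adjusted p = 0.0178), whose call was lost on recovered counts (-0.13, adjusted p = 0.155). Tnfrsf10b, a death receptor named after its values were seen, was the one gene of this list called higher in Nlrx1-/- after LPS + IFNγ (0.72 ± 0.17, adjusted p = 0.0403). That comparison called 2.46% of all genes higher and 2.27% lower.

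Of 6 RHIM proteins and necroptosis partners, 4 rose in WT and 5 rose and 1 fell in Nlrx1-/- (medians 0.40 in each). Among all genes 24.3% were called higher and 19.8% lower in WT, and 25.6% and 23.9% in Nlrx1-/-. Zbp1, the nucleic acid sensor that recruits RIPK3 through its RHIM domains, had 0 reads in all 4 WT vehicle libraries and 558 to 1448 recovered reads in WT after LPS + IFNγ, at least 187-fold higher in each litter when 3 counts are taken as the limit of a 0 in a library. In Nlrx1-/- it had at most 1.66 reads in vehicle and 688 to 2665 after stimulation. Ppp1r3g, a phosphatase subunit that acts on RIPK1, gave -1.02 in WT without a call and was called lower in Nlrx1-/- (-2.70 ± 1.01, adjusted p = 0.0492), on few reads: its stimulated Nlrx1-/- libraries lay between -4.13 log2 CPM, the value of a count of 0, and -2.39, and limma on the deposited values gave -1.74. Of 16 genes of mitochondrial apoptosis 14 were tested. Among these, 8 rose and 1 fell in WT and 9 rose in Nlrx1-/- (medians 0.56 and 0.44), against the shares of all genes given above. Bid, which caspase-8 cuts to link death receptors to mitochondria, rose by 2.12 ± 0.11 and 2.40 ± 0.11 (adjusted p = 1.21e-07 and 4.16e-08), and Bcl2l11, which encodes BIM, fell by 0.30 ± 0.09 in WT (adjusted p = 0.0157) and gave 0.08 in Nlrx1-/-. Between the genotypes after LPS + IFNγ, Bbc3 (0.80 ± 0.21, adjusted p = 0.0462) was called higher and Bad (-0.51 ± 0.12, adjusted p = 0.0403) lower in Nlrx1-/-, both named after their values were seen. The same comparison called 2.46% of all genes higher and 2.27% lower. No gene of these lists was called in the interaction.

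**Figure D4:**
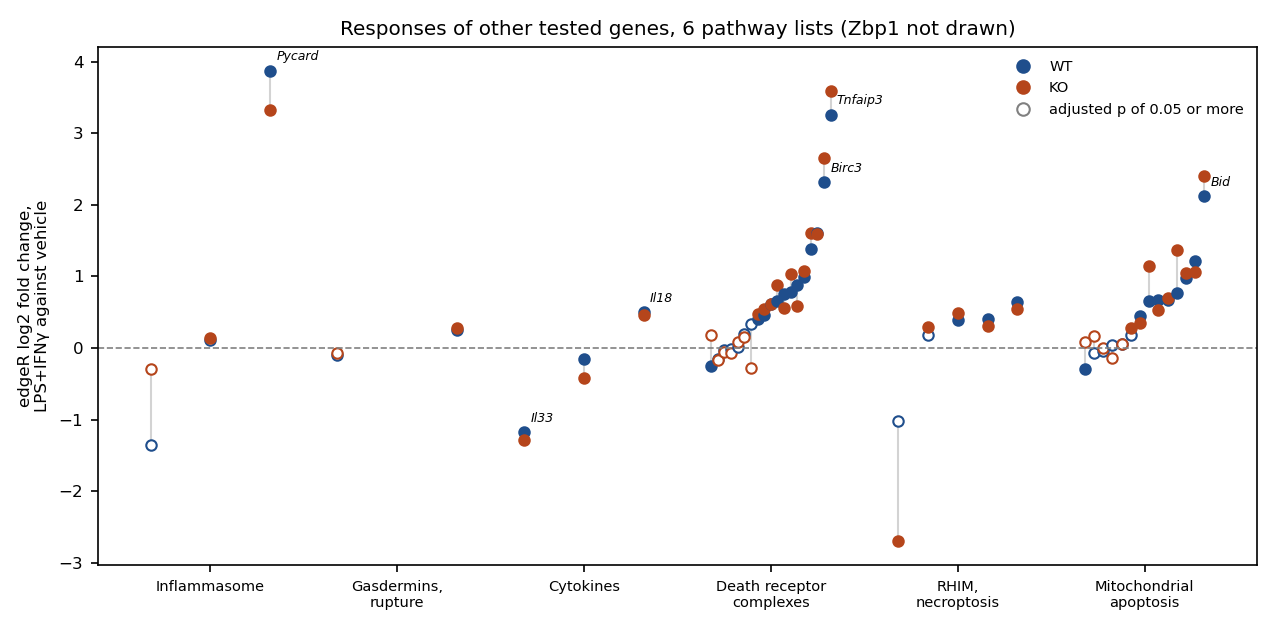
edgeR log2 fold change of LPS + IFNγ against vehicle for the other tested genes of the inflammasome, gasdermin, cytokine, death receptor, RHIM and mitochondrial lists, with WT in blue and Nlrx1-/- (KO) in rust and a grey line joining the values of a gene; open points have an adjusted p of 0.05 or more, and Zbp1, at 0 in all WT vehicle libraries, is not drawn. Pycard and Tnfaip3 stand highest, at 3.88 and 3.26 in WT, and Il33 is the lowest called gene in WT at -1.18.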

How the data were processed

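Poly-A RNA from the 16 libraries was sequenced in paired ends without strand. The authors quantified reads with Salmon 1.7.0 on GRCm39 and deposited expected counts and TPM per transcript and library. They also deposited log2 values of CPM per gene, made from length-scaled counts after a filter on low counts and TMM scaling. The members and the pathway lists were chosen with earlier results of these data known.

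A RefSeq table (GRCm38.p6) paired 106430 of 129698 transcripts with a symbol, and their expected counts were added up for each gene. The quasi-likelihood test of edgeR 4.0.16 (R 4.3.3) was run with offsets for transcript length, TMM factors and the filterByExpr minimum of 10 counts on 16066 genes, with Benjamini-Hochberg adjustment at a threshold of 0.05. The scripts were tested on simulated data. Responses and their difference were fitted with the litter as a block, genotype contrasts without it. Errors of log2 fold changes are the size of the change divided by the square root of F. The paired transcripts miss reads of Casp12, Casp8, Casp4, Gsdmd and Mlkl, so levels are the deposited log2 CPM, and counts recovered from that CPM were tested too, an alternative chosen after seeing the data. DESeq2 1.42.0, limma 3.58.1 on the deposited values, other scalings and filters, and leaving out each litter were the other alternatives.

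Vehicle and stimulated wells of a litter come from the same mice by the series' design text. Deviations from the group means of wells of the same litter correlated at 0.0733 to 0.355 (median 0.218), those of different litters at -0.353 to 0.154 (median -0.0517). Litter numbers do not pair WT with Nlrx1-/- (median -0.00608).

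Besides the 9 members, the text names from each pathway list the genes with the largest and smallest log2 fold change in the WT response, with Pycard, Il1b, Il18, Zbp1, Cflar, Birc3 and Tnfaip3, the 2 genes most like each member over the 16 libraries, and Nlrx1. Levels per length divide the deposited CPM by the effective length of the paired transcripts. Intervals and limits of a count of 0 cover counting error only. Protein sequences were not used, and some genes that this rule names are not reported here.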

Additional observations from a re-analysis of the deposited data

Results flagged for a closer look

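Of 48 groups of 4 values tested for a sample far from the others, 1 stood out, and chance flags about 1 in 20 such groups. Ripk1 in WT vehicle litter 3 was at 5.18 log2 CPM, while the other 3 litters lay between 5.33 and 5.35.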

How the results depend on the processing

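The 7 genes higher after LPS + IFNγ were called in each genotype under all 15 alternatives, Ripk3 under none. In the interaction DESeq2 called 1 member (Casp1), with 0.703% of all genes called higher and 1.23% lower. Leaving out a litter gave 0 to 1 calls, the 1 without Nlrx1-/- litter 3. Without that litter 0.847% of all genes were called higher and 1.36% lower. In vehicle, leaving out a litter gave 0 to 1 members lower, again Casp1 without that litter. Of all genes 3.6% were then called higher in vehicle and 4.28% lower. Compared with the order by deposited CPM, 3 members kept their place by TPM and 4 by CPM per kb in WT after LPS + IFNγ, 2 and 4 in Nlrx1-/- vehicle, and 1 and 3 in Nlrx1-/- after LPS + IFNγ.

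Values that turned sign belonged to genes without a call. limma on the deposited values gave an interaction of -0.14 for Casp8, 0.035 for Gsdmd and -0.26 for Mlkl, a vehicle difference of 0.093 for Casp4 and a difference after LPS + IFNγ of 0.059 for Casp12. Recovered counts gave interactions of -0.14 for Casp8 and -0.26 for Mlkl, and 0.063 for Casp12 after LPS + IFNγ. Leaving out single litters gave ranges of -0.67 to 0.53 for the Ripk3 response in WT. For interactions the ranges were -0.077 to 0.90 for Casp12, -0.14 to 1.06 for Ripk3 and -0.46 to 0.54 for Mlkl. For the vehicle difference they were -4.52 to 0.44 for Casp4, -0.056 to 0.15 for Casp8 and -0.76 to 0.0030 for Casp12. The causes were not tested.

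Without the replicate block the WT response of Ripk3 was 0.078. The block, or its absence, changed no call of a member. It raised the calls over all genes between genotypes after LPS + IFNγ from 395 higher and 364 lower to 996 and 1171, although equal litter numbers share only a number across genotypes. Ripk3 and the vehicle levels of Casp1, Casp4, Gsdmd and Mlkl rest on few reads, which limits their comparisons.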
